A study of Mus musculus with 4 samples.

Results

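The glucocorticoid receptor, its mineralocorticoid partner and a set of their response genes were examined in the hippocampus after surgical trauma. The 9 genes were taken from the deposited count table of 29300 genes by symbol, and all 9 had a row and entered the test. They were the receptors Nr3c1 and Nr3c2, the ligand-activating enzyme Hsd11b1, the co-chaperone Fkbp5 and the response genes Sgk1, Tsc22d3, Zbtb16, Ddit4 and Cdkn1a. Hippocampal RNA came from 2 control mice, which received isoflurane anesthesia and tramadol analgesia only, and from 2 PND mice, which also received an open tibial fracture fixed by intramedullary nailing. PND stands for perioperative neurocognitive disorder, the state that this operation is meant to model. All mice were C57BL/6 males of 7 to 8 months, tissue was taken on day 1 post-surgery, and none of the 4 mice went without anesthesia. Libraries of oligo(dT)-enriched RNA held 15763432 to 18573386 counts.

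Glucocorticoids, corticosterone in the mouse, are released by the adrenal gland under stress and cross into the brain. In the hippocampus they bind the mineralocorticoid receptor with high affinity and the glucocorticoid receptor with lower affinity, so that the latter is occupied mainly at the peaks of the hormone. The bound receptor leaves its chaperone complex, enters the nucleus and binds response elements near target genes. Fkbp5 is both a target and a brake, since its protein lowers the affinity of the receptor for the hormone.

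Sequence before the start is shown for Sgk1 and Tsc22d3, whose windows hold letters of the response element, and for Ddit4, the only response gene that passed the test below. Windows of 300 bases around the RefSeq starts (GRCm38.p6, the same assembly as mm10) were found for 7 of the 9 genes, 15 windows in all. The hexamer AGAACA, searched on both strands, occurred in 4 of the 15 windows (26.7%), 3 of Sgk1 and 1 of Tsc22d3, and in 6226 of the 32817 windows of all genes. The longer palindrome, GNACA and TGTNC with 3 bases of any kind between them, overlaps the hexamer and occurred in 1 of the 15 and in 156 of all windows (0.475%). That window belongs to Sgk1, a kinase that acts on ion channels and transporters, and lies in an intron of its longer transcripts. The stretches are printed 5′ to 3′ on the strand of the gene, up to the start site or the first annotated exon, with the hexamers and the palindrome in capitals. The Sgk1 stretch is chr10:21993640-21993889 on the plus strand, that of Tsc22d3 is chrX:140600660-140600772 on the minus strand and that of Ddit4 is chr10:59951835-59952020 on the minus strand.
Sgk1: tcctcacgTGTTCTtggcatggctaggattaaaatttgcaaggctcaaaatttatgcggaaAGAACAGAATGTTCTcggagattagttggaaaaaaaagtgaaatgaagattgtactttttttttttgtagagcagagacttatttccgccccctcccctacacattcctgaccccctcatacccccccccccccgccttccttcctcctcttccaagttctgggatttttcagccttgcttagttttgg
Tsc22d3: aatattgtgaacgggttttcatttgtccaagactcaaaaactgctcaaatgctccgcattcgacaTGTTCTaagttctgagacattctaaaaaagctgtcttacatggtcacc
Ddit4: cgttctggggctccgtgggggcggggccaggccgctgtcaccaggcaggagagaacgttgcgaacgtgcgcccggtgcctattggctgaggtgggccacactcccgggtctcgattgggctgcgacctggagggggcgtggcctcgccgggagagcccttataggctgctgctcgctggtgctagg
The Sgk1 window held 3 hexamers, a pair of which overlap the palindrome, that of Tsc22d3 held 1, and that of Ddit4 held none. Such matches are letters in a window, and binding was not measured here.

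Nr3c1 rose and Ddit4 fell in PND mice, while the other 7 genes did not pass the test. The test was the quasi-likelihood test of edgeR, and a gene passed with a Benjamini-Hochberg adjusted p-value, taken over all 17144 genes tested, under 0.05. Thus 1 of the 9 genes was higher, against 13.1% of all genes tested, and 1 was lower, against 12.8%, which makes 2 of 9 in either direction, against 26.0%. Neither reached the fold change of 1.5 or 0.67 that the study sets for a differentially expressed gene (DEG), so that 0 of the 9 were DEGs by edgeR. An unadjusted p-value under 0.05 was found for 3 of the 9, against 39.4% of all genes, and 2 of the 9 passed the adjusted threshold by DESeq2, against 28.3% of the 13394 genes with an adjusted value there. Among all genes tested, 6.75% were higher DEGs and 2.25% were lower DEGs. The median log2 fold change of the 9 genes was -0.18, against 0.01 for all genes tested, and it was -0.036 without the second control mouse and -0.32 without the first. Levels of both PND mice lay beyond those of both control mice for 3 of the 9 genes, against 65.5% of all genes. Levels are given in CPM, which relate the counts of a gene to the TMM-scaled total of its library.

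**Figure D1:**
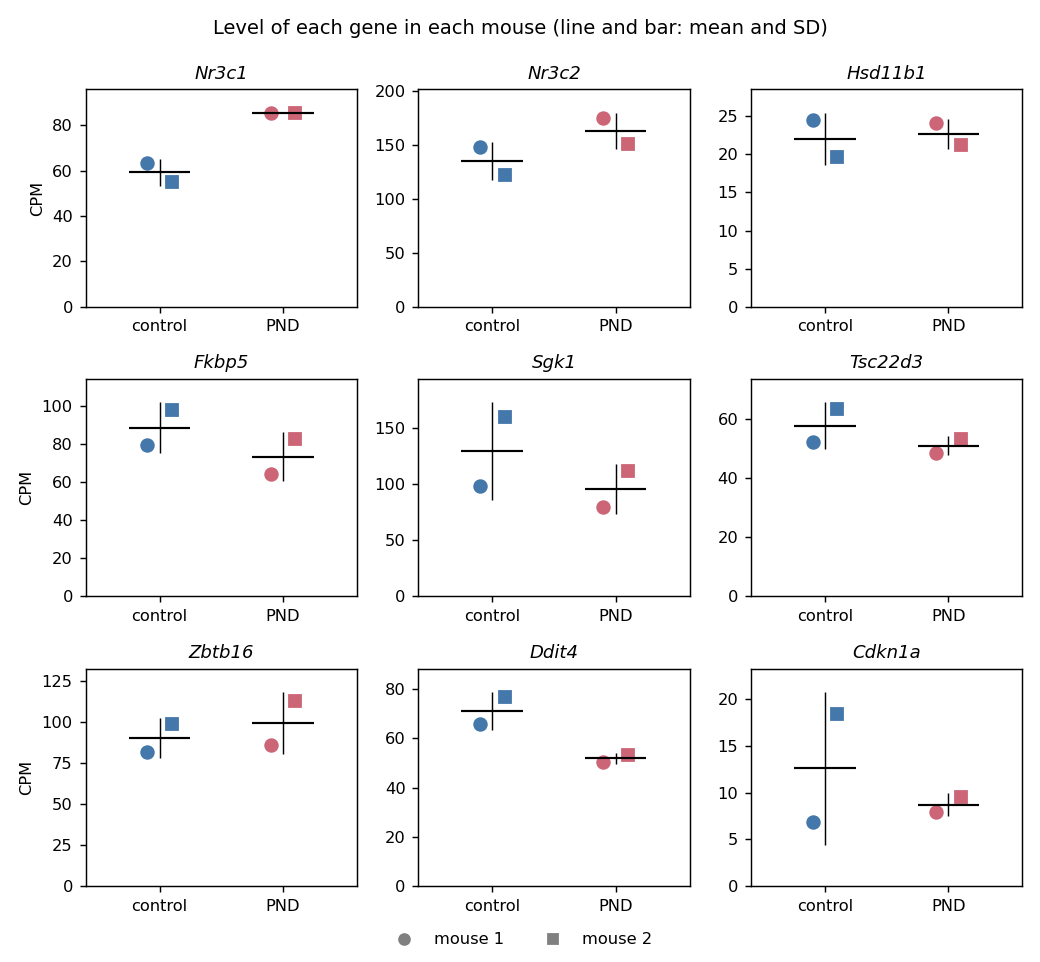
Level of each of the 9 genes in CPM (vertical axes from 0) in the 2 control and the 2 PND mice, with circles for mouse 1 and squares for mouse 2 of each group, and the mean and SD as line and bar. The PND mice both lie above the control mice for Nr3c1 and Nr3c2 and below them for Ddit4, while the groups overlap for the other 6 genes.

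Nr3c1 (ENSMUSG00000024431, mm10 chromosome 18, 39410545 to 39491301) encodes the glucocorticoid receptor. It had 63.4 and 55.0 CPM in the control mice and 85.5 and 85.3 CPM in the PND mice. Both PND mice were above both control mice and nearly equal to each other. The rise was 1.44-fold, a log2 fold change of 0.53 (standard error 0.09, 95% interval 0.32 to 0.74, adjusted p = 0.0083 by the same edgeR test). Nr3c1 passed the test under each of the 12 alternative settings, with log2 fold changes from 0.43 without the second control mouse to 0.69.

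Nr3c2 (ENSMUSG00000031618, mm10 chromosome 8, 76899442 to 77245012) encodes the mineralocorticoid receptor, the high-affinity receptor of hippocampal neurons. It had 147 and 122 CPM in the control mice and 175 and 151 CPM in the PND mice. The groups were separate, but the gap from the higher control mouse to the lower PND mouse was small beside that between the mice of a group. Its log2 fold change was 0.27 (95% interval 0.00 to 0.54, edgeR's adjusted p = 0.12), and it did not pass the test. Without the first control mouse the log2 fold change was 0.41 (edgeR's adjusted p = 0.037) and without the second PND mouse 0.38 (edgeR's adjusted p = 0.045). It was 0.14 without the second control mouse and 0.15 without the first PND mouse (edgeR's adjusted p = 0.43 and 0.38). Exons of Gm10649 cover 247 bases of Nr3c2 on the opposite strand, so that reads there could not be told apart if the counting used no strand.

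The balance of both receptors was also taken within each library, where the scaling between libraries cancels. Per kilobase of exon, the ratio of Nr3c1 to Nr3c2 counts was 0.362 and 0.379 in control mice, against 0.412 and 0.476 in PND mice. Nr3c2 was thus the more abundant transcript in all 4 mice, and the ratio did not overlap between the groups, with the PND mice higher. The ratio of Fkbp5 to Nr3c1 was 1.02 and 1.45 in control mice, against 0.611 and 0.787 in PND mice. That of Sgk1 to Nr3c1 was 2.44 and 4.57 in control mice, against 1.47 and 2.05 in PND mice. Both ratios were lower in both PND mice, and both have the raised Nr3c1 in the denominator. No test was made of the ratios, which describe these 4 libraries.

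Hsd11b1 (ENSMUSG00000016194, mm10 chromosome 1, 193221634 to 193264075) encodes the enzyme that regenerates active corticosterone from its inert 11-keto form inside cells. It had 24.5 and 19.6 CPM in the control mice and 24.0 and 21.2 CPM in the PND mice. The groups overlapped, with a log2 fold change of 0.04 (95% interval -0.30 to 0.38, edgeR's adjusted p = 0.86). The direction was not settled, since the log2 fold change was -0.12 without the second control mouse and 0.20 without the first.

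Fkbp5 (ENSMUSG00000024222, mm10 chromosome 17, 28399095 to 28517524) had 79.4 and 98.2 CPM in the control mice and 64.4 and 82.7 CPM in the PND mice. The higher PND mouse lay between the control mice. Its log2 fold change was -0.27 (95% interval -0.62 to 0.08, edgeR's adjusted p = 0.22), and -0.46 without the second PND mouse (edgeR's adjusted p = 0.049). It was -0.12 without the second control mouse and -0.12 without the first PND mouse (edgeR's adjusted p = 0.64 and 0.56). The interval admits a fall below 0.67-fold of the control level but no rise of 1.5-fold.

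Sgk1 (ENSMUSG00000019970, mm10 chromosome 10, 21882184 to 21999903), whose upstream palindrome is printed above, had 98.6 and 160 CPM in the control mice. It had 80.0 and 111 CPM in the PND mice. The second control mouse stood above the other 3 mice, and the groups overlapped. The log2 fold change was -0.44 (95% interval -1.02 to 0.15, edgeR's adjusted p = 0.23). It was -0.75 without the first control mouse (edgeR's adjusted p = 0.019) and -0.05 without the second (edgeR's adjusted p = 0.88), so that the size of the difference turned on the control mouse that was kept.

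Tsc22d3 (ENSMUSG00000031431, mm10 chromosome X, 140539528 to 140600659) encodes GILZ, a leucine zipper protein through which glucocorticoids restrain inflammatory signaling. It had 52.2 and 63.5 CPM in the control mice and 48.8 and 53.4 CPM in the PND mice, with overlap of the groups. Its log2 fold change was -0.18 (95% interval -0.45 to 0.09, edgeR's adjusted p = 0.28). It was -0.036 without the second control mouse and -0.32 without the first, and it did not pass the test in either fit. Zbtb16 (ENSMUSG00000066687, mm10 chromosome 9, 48654297 to 48836222), a zinc finger repressor also known as PLZF, had 82.0 and 98.9 CPM in the control mice and 86.3 and 113 CPM in the PND mice. Its log2 fold change was 0.14 (95% interval -0.21 to 0.49, edgeR's adjusted p = 0.52), and it was -0.063 without the second PND mouse. For both genes the levels of the groups overlapped.

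Ddit4 (ENSMUSG00000020108, mm10 chromosome 10, 59949669 to 59951834) encodes REDD1, an inhibitor of mTORC1 signaling that is also induced by hypoxia and energy stress. It had 65.8 and 76.6 CPM in the control mice and 50.3 and 53.3 CPM in the PND mice. Both PND mice were below both control mice, with a log2 fold change of -0.46 (standard error 0.09, 95% interval -0.69 to -0.23, adjusted p = 0.017 by the same edgeR test). Without the second control mouse it was -0.35 (edgeR's adjusted p = 0.063). Its transcript has a GC content of 57.9%, and in the eighth of all genes with the highest GC content, to which it belongs, the median log2 fold change was -0.33. After removal of the length and GC trends, fitted in each library, the log2 fold change of Ddit4 was -0.14 (95% interval -0.34 to 0.06, edgeR's adjusted p = 0.35).

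Cdkn1a (ENSMUSG00000023067, mm10 chromosome 17, 29090979 to 29100722) encodes p21, an inhibitor of cyclin-dependent kinases and a target of p53 as well as of the glucocorticoid receptor. It was the lowest of the 9 genes, with 118 and 337 counts in control mice, against 126 and 162 in PND mice. These were 6.84 and 18.4 CPM in the control mice and 7.89 and 9.58 CPM in the PND mice. The second control mouse alone was high, and the PND mice lay between the control mice. The log2 fold change was -0.54 (95% interval -1.56 to 0.49, edgeR's adjusted p = 0.40). It was -1.08 without the first control mouse (edgeR's adjusted p = 0.010) and turned to 0.35 without the second (edgeR's adjusted p = 0.39). Of its 75 nt windows, 7.05% also occur in transcripts of other genes, and AC167363.2 overlaps 273 of its bases on the opposite strand.

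**Figure D2:**
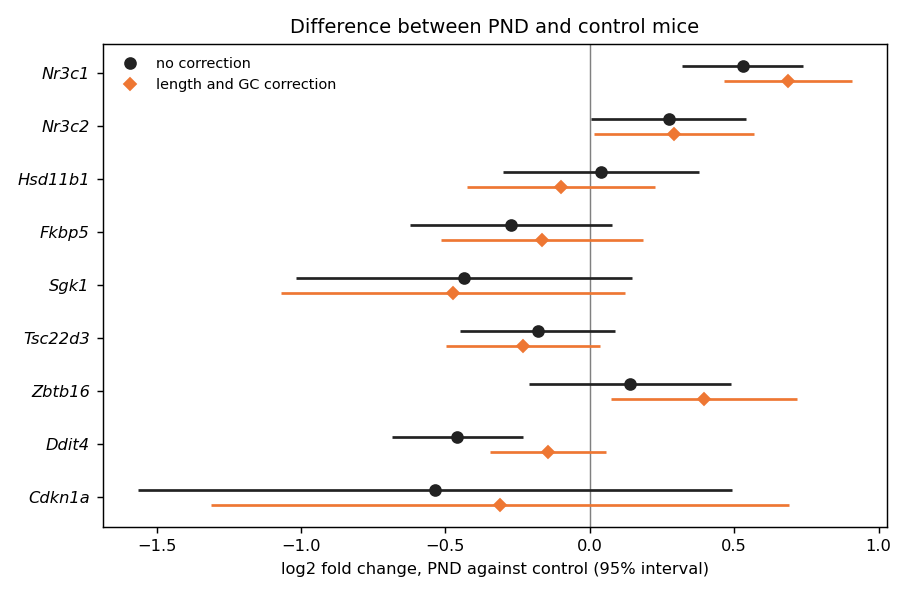
Log2 fold change of PND against control mice for each gene, with its 95% interval as a line, without (circles) and with (diamonds) removal of the length and GC trends. The intervals of Nr3c1 and Nr3c2 stay above 0 in both fits. That of Zbtb16 lies above 0 only with the correction, and that of Ddit4 below 0 only without it. The intervals are not adjusted for the number of genes tested.

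The length and GC correction bears on these genes unequally. For Nr3c1, whose transcripts have a median GC content of 53.1%, the eighth of genes with like GC content had a median of -0.17, and the log2 fold change went from 0.53 to 0.69 with the correction (edgeR's adjusted p = 0.024). That of Zbtb16, with 55.8% GC, went from 0.14 to 0.40 (edgeR's adjusted p = 0.14), that of Fkbp5 from -0.27 to -0.17 and that of Sgk1 from -0.44 to -0.47. With the correction 1 of the 9 genes, Nr3c1, passed the test, against 4.13% of the 17120 genes in that fit, 2.51% higher and 1.62% lower.

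Fkbp5 and the 5 response genes differed between the mice within each group, and in the same direction. All 6 were higher in the second than in the first control mouse and higher in the second than in the first PND mouse, while among all genes tested 46.3% and 49.6% were so and 25.7% were so in both groups. The 6 gaps ran from 0.22 to 1.41 on the log2 scale between the control mice and from 0.08 to 0.48 between the PND mice. The median absolute gap over all genes was 0.14 in each group, above the gaps of Ddit4 (0.08) and Tsc22d3 (0.13) between the PND mice. The gap between the control mice was 1.62-fold for Sgk1 and 2.66-fold for Cdkn1a, larger than in 92.5% and 98.5% of all genes. For Fkbp5 the gap was 1.24-fold between the control mice and 1.28-fold between the PND mice. For 5 of the 6 genes, all but Ddit4, the gap between the control mice was at least as large as the fold change between the groups. Nr3c1, Nr3c2 and Hsd11b1 went the other way, with lower levels in the second mouse of each group, although the PND mice differed by only 0.004 on the log2 scale for Nr3c1. The labels give no link between mice with the same number.

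**Figure D3:**
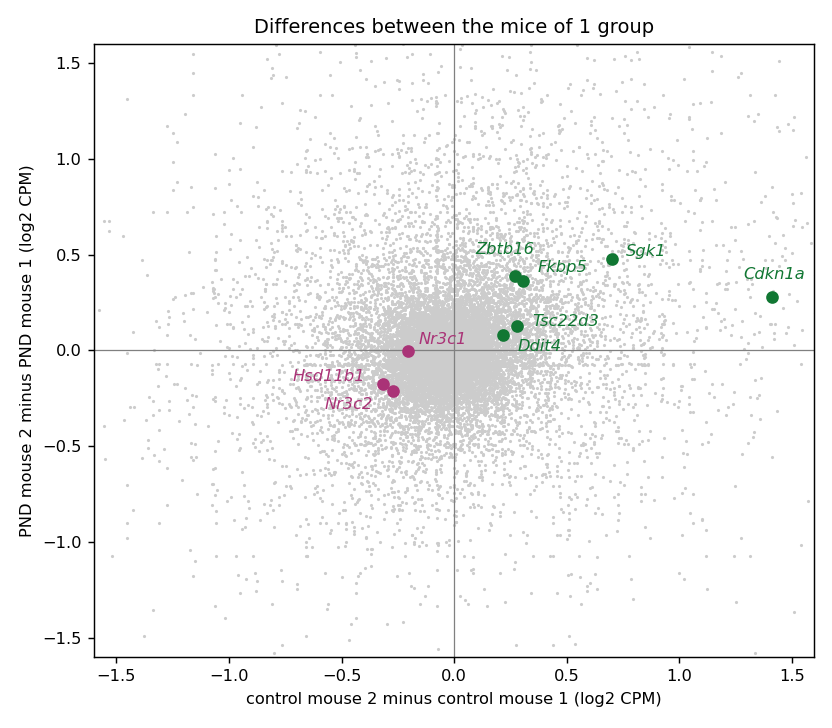
Difference in log2 CPM between mouse 2 and mouse 1 of the control group (horizontal) and of the PND group (vertical) for all genes tested (grey, 339 of which lie outside the axes) and the 9 genes (colored). Fkbp5 and the 5 response genes lie at the upper right, and the receptors and Hsd11b1 at the lower left.

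The same libraries differed in choroid plexus RNA. The summed level of 5 choroid plexus markers (Ttr, Folr1, Kcnj13, Clic6 and Prlr), all of which were detected, was 102 CPM in the first control mouse, 5230 in the second, 1968 in the first PND mouse and 3351 in the second. It was thus also higher in the second mouse of each group. Between the first mice, it was higher in the PND mouse, where Zbtb16 and Cdkn1a were higher and Fkbp5, Sgk1, Tsc22d3 and Ddit4 were lower. Between the second mice, it was lower in the PND mouse, where Zbtb16 was higher and the other 5 genes were lower. Its part in the levels of the response genes was not tested. In whole tissue, fewer cells of a type and less RNA per cell cannot be told apart. All 5 hippocampal neuron markers were present in all mice, and 2 rose and 2 fell, against 13.1% and 12.8% of all genes. Calb1 (log2 fold change 0.48) and Neurod6 (0.53) rose, while Wfs1 (-0.70) and Fibcd1 (-0.64) fell. Prox1 had 0.43 and did not pass (edgeR's adjusted p = 0.054). For each of the 5, levels of both PND mice lay beyond those of both control mice, against 65.5% of all genes. Markers of other cells are to be read against 13.1% of all genes higher and 12.8% lower. The shares of all genes were 28.3% by DESeq2 and 39.4% at an unadjusted p-value under 0.05. Of these markers, 1 of 5 for neurons fell, and 2 of 5 for astrocytes rose and 1 fell. For oligodendrocytes 0 of 5 passed by edgeR or DESeq2 or had an unadjusted p-value under 0.05, and 3 of 4 for their precursors fell. For microglia 1 of 5 rose, for endothelium 2 of 5, for pericytes 1 of 4 and for choroid plexus 0 of 5 (0 by DESeq2 and at an unadjusted p-value under 0.05). For red blood cells 0 of 2 passed (0 by the same measures) and for neutrophils 1 of 4 fell. With the length and GC correction 1 astrocyte marker and 0 markers of the other cell types passed edgeR's test, against 4.13% of all genes in that fit. Among the hippocampal neuron markers Calb1 changed sign under it, from 0.48 to -0.32. The others kept their sign, with 0.53 for Prox1, 0.13 for Neurod6, -0.40 for Wfs1 and -0.30 for Fibcd1. The median of the 5 thereby went from 0.43 to -0.30. Endothelial markers summed to 175 and 180 CPM in control mice, against 204 and 267 CPM in PND mice. Oligodendrocyte markers summed to 5861 and 5074 CPM in control mice, against 5775 and 3728 CPM in PND mice. The part of these cells in the results above was not tested. Protein-coding transcripts of the mitochondrial genome took 2.52% to 2.82% of counts in control mice, against 4.44% to 4.48% in PND mice.

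Compared per kilobase of exon, the levels of the 9 genes ran from 2.46 to 40.6 CPM per kilobase as group means. In the control mice Ddit4 was the most abundant with 40.6 ± 4.35 CPM per kilobase (SD, n = 2). Sgk1 followed with 26.4 ± 8.89 and Nr3c2 with 20.8 ± 2.77, and the values of these 2 genes overlapped. Zbtb16 had 17.1 ± 2.26, Tsc22d3 13.3 ± 1.83, Fkbp5 9.38 ± 1.40 and Nr3c1 7.70 ± 0.773 CPM per kilobase, in that order without overlap of neighbours. Hsd11b1 with 5.18 ± 0.807 and Cdkn1a with 3.55 ± 2.30 closed the order and overlapped. In the PND mice Ddit4 still led with 29.5 ± 1.17, and Nr3c2 with 25.2 ± 2.60 came before Sgk1 with 19.5 ± 4.52 CPM per kilobase (SD, n = 2). The values of Sgk1 overlapped those of Zbtb16, with 18.9 ± 3.58, which came before Tsc22d3, with 11.8 ± 0.748. Nr3c1, with 11.1 ± 0.0193, stood above Fkbp5, with 7.76 ± 1.37, in the PND mice, and the order of these 2 genes was the reverse of that in the control mice. The union of all annotated exons served as the length, so that genes with long rare exons read lower.

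Genes that work with the receptor were counted beside it. Of 12 genes of the chaperone complex, 4 rose and 1 fell, where 13.1% of all genes were higher and 12.8% lower. Their median log2 fold change was -0.06, and its sign was not stable, with 0.17 under the length and GC correction, 0.10 without the second PND mouse and -0.17 without the first. Ptges3, which encodes the p23 co-chaperone that holds the receptor in its hormone-binding state, rose from 53.1 ± 4.13 to 81.4 ± 0.378 CPM (SD, n = 2), with a log2 difference of 0.62 (adjusted p = 0.0053 by the same edgeR test). Ppp5c, a phosphatase found in receptor complexes, fell from 157 ± 11.0 to 113 ± 6.80 CPM (SD, n = 2), with a log2 difference of -0.48 (adjusted p = 0.0083 by the same edgeR test). Of 11 coregulators, 2 rose and 3 fell, with a median of -0.06. Nrip1, a corepressor of nuclear receptors, rose by a log2 fold change of 0.34 (adjusted p = 0.047 by the same edgeR test), and Carm1, an arginine methyltransferase and coactivator, had -0.47 (adjusted p = 0.0090 by the same edgeR test). With the length and GC correction, 0 of the 12 chaperone genes and 0 of the 11 coregulators passed edgeR's test, against 4.13% of all genes in that fit. The log2 fold changes were then 0.27 for Ptges3, -0.20 for Ppp5c, 0.41 for Nrip1 and -0.17 for Carm1.

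Among 25 tested genes of a further list of glucocorticoid-induced transcripts, 2 rose and 5 fell, against the same shares of all genes, and the median log2 fold change was -0.35. Both PND mice were below both control mice for 12 of the 25, against 32.2% of all genes, and above them for 4, against 33.2%. Rgs2, a regulator of G protein signaling, rose from 18.5 ± 0.975 to 32.1 ± 4.51 CPM (SD, n = 2), with a log2 difference of 0.80 (adjusted p = 0.0079 by the same edgeR test). Mfsd2a, a lipid transporter of the blood-brain barrier, had the largest fall among the genes that passed, from 25.7 and 38.4 CPM in control mice to 19.7 and 20.8 CPM in PND mice, with a log2 difference of -0.66 (adjusted p = 0.047 by the same edgeR test). The median of the list was -0.19 without the second control mouse and -0.18 with the length and GC correction. Under that correction 1 of the 25 genes passed, against 4.13% of all genes in that fit. The log2 fold changes there were 0.55 for Rgs2 and -0.40 for Mfsd2a (edgeR's adjusted p = 0.068 and 0.23). The gene that passed was Rhob, with -0.58 before the correction and -0.31 after it (edgeR's adjusted p = 0.041), and it is named after its value was seen.

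In this list, too, the second control mouse stood above the first, for 20 of the 25 genes against 46.3% of all genes, with a median gap of 0.28 on the log2 scale. Between the PND mice 12 of the 25 were higher in the second, against 49.6% of all genes, with a median gap of -0.002. The widest gaps between the control mice, picked after the values were seen, were in Plin4, Angptl4 and Hif3a. The gap was 2.86-fold for Plin4, a lipid droplet protein, and Hif3a had 17.4 and 36.7 CPM. For Angptl4, an inhibitor of lipoprotein lipase, it was 2.31-fold and rested on only 25 and 64 counts. Between the groups, Plin4, Angptl4 and Hif3a had log2 fold changes of -1.45, 0.07 and -0.95. With edgeR's adjusted p-values of 0.068, 0.93 and 0.13, none of the 3 passed the test.

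**Figure D4:**
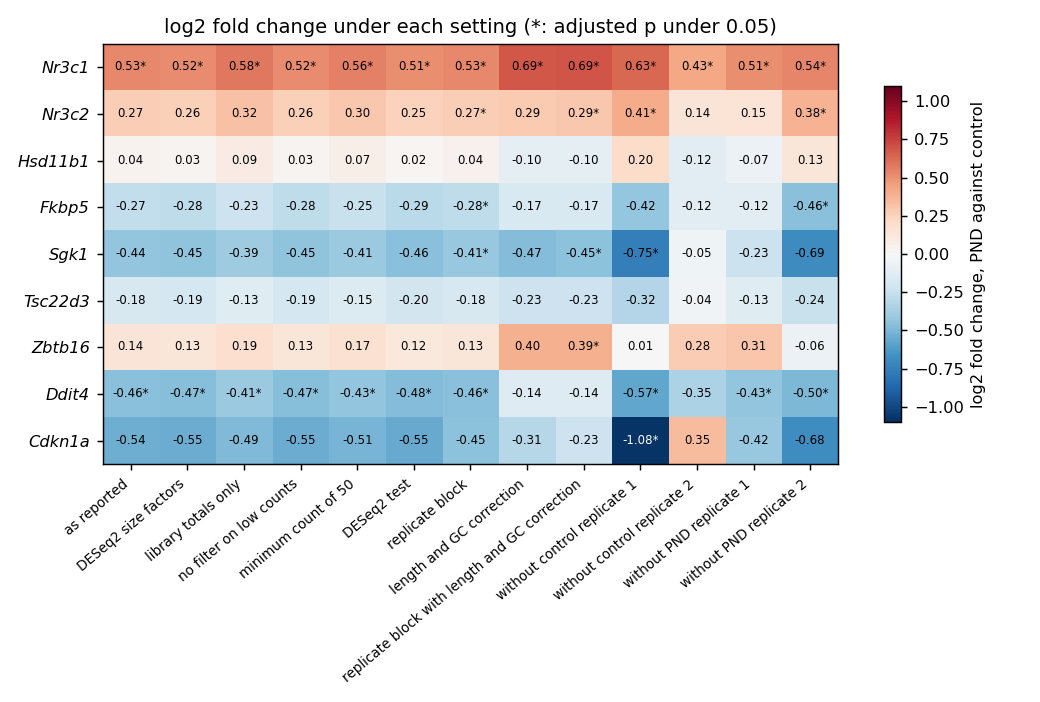
Log2 fold change of each gene (rows) as reported and under each of the 12 alternative settings (columns), colored by size, with a star where the adjusted p-value is under 0.05. Nr3c1 carries a star in every column and Ddit4 in all but 3 of the alternatives. Hsd11b1 and Tsc22d3 carry none, and the remaining genes only where 1 mouse was left out or the replicate number was a block.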

How the data were processed

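Hippocampal RNA of 2 control and 2 PND mice was sequenced as paired-end reads from oligo(dT)-enriched RNA. The authors used HISAT to align filtered reads to mm10, and the deposited values used here are raw read counts per gene. The submitters' processing notes also list HISAT2 2.1.0, Bowtie2 2.2.3, TopHat2 and HTSeq 0.6.0. The counting settings and the use of strand are not given in the sources used here. The deposited table also holds the authors' mean, fold changes and p-values, which were not used. All 4 per-sample columns matched a mouse by name.

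Tests used edgeR 4.0.16 under R 4.3.3 (filterByExpr at a minimum count of 10, TMM, glmQLFit without its legacy form, glmQLFTest, condition as the only term), which left 17144 genes. Standard errors and 95% intervals were derived from the F statistic. Log2 CPM used a prior count of 2. Alternatives were DESeq2 1.42.0, other scalings and count filters, a replicate block and leaving out each mouse, where the lone mouse left was assumed to vary like those of the other group. Trends with transcript length and GC content (medians over the transcripts of GENCODE M21) were fitted with mgcv 1.9.3 (basis size 8) for 17120 genes and entered as offsets. Library totals of 15763432 to 18573386 counts set the counting error, while the standard errors also hold the spread between mice, and TMM factors ran from 0.982 to 1.02. The fits were tested on simulated counts.

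The 9 genes and all lists were chosen with earlier results of these data known. Lists covered receptor chaperones, coregulators, corticosteroid metabolism, other induced genes, stress hormones, paralogues, p53 targets and cell type markers. All members were named. Of each other pathway list, the genes with the largest rise and the largest fall past the test were named, and others as stated. Cell type markers were given by counts and sums, and those of hippocampal neurons and choroid plexus also by name. Replicate numbers were not treated as pairs in the reported test, and entered as a block only in the alternatives named so. With 2 groups of 2, the gaps between mouse 2 and mouse 1 correlated at r = 0.22 across 17144 genes, which are not independent.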

Additional observations from a re-analysis of the deposited data

How the results depend on the processing

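Nr3c1 passed the test under all 12 alternatives, and Ddit4 under 9 of them. Of the 108 alternative values of the 9 genes, 88 kept direction and side of the threshold, 11 passed it newly, 3 lost it and 6 turned direction. The number of genes higher, 1 as reported, was 2 with the replicate number as a block, 3 with the block and the length and GC correction, and ran from 1 to 2 as each mouse was left out. The number lower, 1 as reported, was 3 with the block and 0 with the length and GC correction, and ran from 0 without the second control mouse to 3 without the first. With the block, Nr3c2, Fkbp5 and Sgk1 also passed (edgeR's adjusted p = 0.015, 0.022 and 0.0086). The block alone changed no other call of the 9 genes. With the block and the length and GC correction together, Nr3c1, Nr3c2, Zbtb16 (0.39, edgeR's adjusted p = 0.0010) and Sgk1 passed, and Fkbp5 and Ddit4 did not (edgeR's adjusted p = 0.097 and 0.20). The numbers share no stated origin. Hsd11b1 turned to -0.10 with the length and GC correction, and -0.10 with the block added, and ran from -0.12 to 0.20 over the mice left out. Zbtb16 ran from -0.063 to 0.31 and Cdkn1a from -1.08 to 0.35. Over the other pathway lists, 14 genes were higher and 11 lower. These were 8 and 5 with no filter on low counts and 0 and 1 with the length and GC correction, 7 were lower with library totals only, and the ranges over the mice left out were 8 to 12 and 6 to 14. Over all genes, 2249 were higher and 2201 lower. They were 1315 and 1350 with no filter, 429 and 278 with the length and GC correction, 2653 and 2626 with the block, and 1788 and 1340 with the block and that correction. Over the mice left out they ran from 1201 to 2025 and from 1207 to 2080, the lowest counts without the second control mouse. The cause of these changes was not tested. With 2 mice per group, the calls of Nr3c2, Fkbp5, Sgk1, Ddit4 and Cdkn1a turned on the mouse left out.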

Other observations

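Close relatives of the 9 genes were tested beside them. Of 11 paralogues, 3 rose and 1 fell, where 13.1% of all genes were higher and 12.8% lower, and 0 passed edgeR's test with the length and GC correction. Their median log2 fold change was 0.25, and it was 0.10 with that correction, 0.12 without the second control mouse and 0.087 without the second PND mouse. Cdkn1c, which encodes the p57 inhibitor of the family of Cdkn1a, had 1.41 ± 1.09 CPM in the control mice and 5.57 ± 2.66 CPM in the PND mice (SD, n = 2). Its log2 fold change was 1.96 (edgeR's adjusted p = 0.042). The gap between its control mice was 3.05-fold. Tsc22d4, of the family of Tsc22d3, had a log2 fold change of -0.28 (edgeR's adjusted p = 0.040). With the correction the log2 fold change was 2.32 for Cdkn1c (edgeR's adjusted p = 0.067) and 0.03 for Tsc22d4 (edgeR's adjusted p = 0.84). The paralogue of Fkbp5 in receptor complexes, Fkbp4, had 125 and 123 CPM in the control mice and 122 and 101 CPM in the PND mice and did not pass the test.

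Of 15 p53 targets other than Cdkn1a, 3 rose and 1 fell, against the same shares of all genes, and their median was -0.01. Among those that passed, Trp53inp1 had the largest rise, 0.77, and Phlda3 the largest fall, -0.51, with edgeR's adjusted p-values of 0.015 and 0.034, and 0 of the 15 passed with the length and GC correction, under which the values were 0.23 and -0.18 (edgeR's adjusted p = 0.43 and 0.48). Of 5 tested stress hormone peptides and receptors, 0 passed edgeR's test, 2 had an unadjusted p-value under 0.05 and 0 passed by DESeq2. Of 4 tested genes of corticosteroid metabolism and transport, 0 passed edgeR's test, 1 had an unadjusted p-value under 0.05 and 0 passed by DESeq2. These counts stand beside 26.0% of all genes by edgeR, 39.4% at an unadjusted p-value under 0.05 and 28.3% by DESeq2.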
